A study of Mus musculus with 18 samples.

Results

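CD24high lung epithelial cells were compared between mice given a G9a inhibitor (G9ai) and mice given vehicle, by the open chromatin regions listed for each arm. The cells were sorted from lungs of adult c57/bl6 mice of 6 to 12 weeks as CD31-, CD45-, Epcam+, Sca-1+ cells with high CD24. The G9ai arm had 2 peak lists, from replicates 2 and 3, and the vehicle arm had 1 library, replicate 3. The labels also name G9ai replicate 1 and vehicle replicates 1 and 2, which were not analysed here. Each library was made from 10000 cells, and the design names 3 mice per arm. The labels give neither the inhibitor's name, dose and length of treatment nor whether a library pooled mice. After repeated lines were dropped, peaks that overlapped by at least 1 bp across the 3 lists were merged into 15687 regions, of 33312 regions over all 10 lists of the series. A G9ai-only region had a peak in both G9ai lists and none in the vehicle list. A vehicle-only region had a peak in the vehicle list and in neither G9ai list.

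ATAC-seq marks DNA that the Tn5 transposase can enter, and short nucleosome-free fragments mark promoters and enhancers in use. G9a (Ehmt2) works with its partner GLP (Ehmt1) to place mono- and dimethylation on lysine 9 of histone H3, a mark of silent chromatin that is removed by Kdm3 and Kdm4 family demethylases. In mouse airways high CD24 is a feature of multiciliated cells, which line the airway beside secretory club cells. Alveolar type 2 cells make surfactant and alveolar type 1 cells form the thin gas exchange surface.

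Of the 15687 regions, 2675 (17.1%) were G9ai-only and 12880 (82.1%) were vehicle-only. A further 105 regions (0.669%) had peaks in both arms and 27 (0.172%) in 1 G9ai list without the vehicle list. The vehicle side rests on 1 library, so its regions have no replicate check. Asking for a peak in both G9ai lists adds little check either. As deposited, 99.6% and 99.4% of the peaks of these lists overlap the other list. The lists as deposited hold a part of each library's peaks, since peak numbers ran up to 92310 and 76240 in the G9ai libraries, where 2798 and 2817 peaks were listed, and up to 98001 in the vehicle library, where 12985 were listed. The labels and files do not say how the listed peaks were selected. A gene without a listed region may therefore be open in both arms, and a region of 1 arm only is a difference between lists. For the same reason, the 0.669% of regions in both arms does not measure how far open chromatin differed.

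Promoter sequences are shown for genes with the strongest listed regions and for airway and alveolar genes. For G9ai-only regions, the bases upstream of a RefSeq start that lie inside the region are shown for 3 alveolar type 2 genes, for Fyn, whose region had the highest mean score among gene-linked G9ai-only regions, and for the forkhead gene Foxj2. Sequences are from RefSeq, build GRCm38.p6, 5′ to 3′ on the gene's strand, and capitals mark the 8 promoter words searched and described below.

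Lpcat1 (chr13:73467064-73467230, + strand): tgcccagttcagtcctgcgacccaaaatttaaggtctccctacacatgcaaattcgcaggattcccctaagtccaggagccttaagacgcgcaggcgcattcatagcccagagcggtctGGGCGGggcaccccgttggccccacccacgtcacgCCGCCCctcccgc
Slc34a2 (chr5:53049177-53049352, + strand): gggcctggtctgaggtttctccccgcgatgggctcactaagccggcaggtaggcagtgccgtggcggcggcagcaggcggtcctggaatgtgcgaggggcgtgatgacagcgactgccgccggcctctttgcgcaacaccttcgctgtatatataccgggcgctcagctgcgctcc
Cxcl15 (chr5:90794284-90794482, + strand): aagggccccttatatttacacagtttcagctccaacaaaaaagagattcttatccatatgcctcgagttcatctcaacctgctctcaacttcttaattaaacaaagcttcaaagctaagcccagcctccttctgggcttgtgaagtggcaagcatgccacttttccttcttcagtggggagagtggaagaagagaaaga
Fyn (chr10:39369549-39369798, + strand): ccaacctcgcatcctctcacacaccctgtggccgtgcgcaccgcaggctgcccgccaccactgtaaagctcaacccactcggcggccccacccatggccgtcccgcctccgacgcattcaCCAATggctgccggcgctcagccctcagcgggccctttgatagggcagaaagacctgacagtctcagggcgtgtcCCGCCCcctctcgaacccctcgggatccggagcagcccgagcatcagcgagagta
Foxj2 (chr6:122819934-122820016, + strand): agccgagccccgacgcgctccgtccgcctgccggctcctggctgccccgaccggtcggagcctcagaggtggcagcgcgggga

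For vehicle-only regions, the same stretch is shown for the cilium genes Dnah5, Ccdc78 and Kif3a, for Capsl, and for the club cell genes Cyp2f2 and Pigr. Capsl and Kif3a carried the peaks ranked 2 and 5 in the vehicle list.

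Dnah5 (chr15:28203516-28203748, + strand): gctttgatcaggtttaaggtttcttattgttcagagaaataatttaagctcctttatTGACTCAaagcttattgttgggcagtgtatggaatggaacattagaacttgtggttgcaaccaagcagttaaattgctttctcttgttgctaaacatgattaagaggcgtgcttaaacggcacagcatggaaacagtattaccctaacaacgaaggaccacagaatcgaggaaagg
Ccdc78 (chr17:25786507-25786579, + strand): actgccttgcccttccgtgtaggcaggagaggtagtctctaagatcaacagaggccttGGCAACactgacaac
Capsl (chr15:9435778-9436027, + strand): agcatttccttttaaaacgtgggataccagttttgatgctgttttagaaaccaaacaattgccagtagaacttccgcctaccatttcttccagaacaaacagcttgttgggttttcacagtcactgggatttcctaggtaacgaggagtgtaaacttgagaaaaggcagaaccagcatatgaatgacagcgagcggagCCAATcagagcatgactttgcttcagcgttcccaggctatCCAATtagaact
Kif3a (chr11:53567173-53567368, + strand): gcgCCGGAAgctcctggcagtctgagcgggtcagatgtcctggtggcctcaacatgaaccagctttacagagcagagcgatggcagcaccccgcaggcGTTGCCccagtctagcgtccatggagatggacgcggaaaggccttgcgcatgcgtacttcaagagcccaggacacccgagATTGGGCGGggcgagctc
Cyp2f2 (chr7:27119847-27119954, + strand): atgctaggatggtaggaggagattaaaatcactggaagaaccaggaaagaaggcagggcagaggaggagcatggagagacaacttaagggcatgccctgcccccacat
Pigr (chr1:130826589-130826683, + strand): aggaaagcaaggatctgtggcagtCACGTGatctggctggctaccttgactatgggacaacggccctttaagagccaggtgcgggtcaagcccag

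The Fyn, Foxj2, Slc34a2 and Lpcat1 stretches were 67.2%, 78.3%, 66.5% and 62.3% G or C, whereas the stretch of Cxcl15, a chemokine of mouse lung epithelium, was 43.7%. Among vehicle-only stretches, Kif3a was 63.3% and Pigr 56.8% G or C, while Dnah5 and Capsl were 39.1% and 43.6%. Lpcat1 held 2 GC boxes and Fyn a GC box and a CCAAT box. Ccdc78 and Kif3a held the RFX word GTTGCC, Capsl held 2 CCAAT boxes, Dnah5 an AP-1 word and Pigr an E-box. Kif3a also held an ETS core, a CCAAT box and a GC box, of which the last 2 overlap.

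G9ai lists were the shorter ones in CD24high cells. They held 2798 and 2817 peaks in the G9ai libraries, against 12985 in the vehicle library, and the G9ai mean was 2808 ± 13.4 (SD, n = 2), a log2 ratio of -2.21. The groups did not overlap, and an exact two-sided permutation test over the 3 libraries gave p = 0.333, the smallest value this design allows. Peaks of the 2 G9ai lists overlapped almost fully, with 99.6% of replicate 2 and 99.4% of replicate 3 in the other list, although 3 peaks had identical coordinates. The 2 lists thus hold nearly the same regions. The SD and the test therefore cannot be read as spread between independent replicates. With the vehicle list, 95 peaks (3.4%) of G9ai replicate 2 and 102 peaks (3.62%) of replicate 3 overlapped. Median peak widths were 154 and 152 bp in the G9ai lists and 149 bp in the vehicle list.

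**Figure D1:**
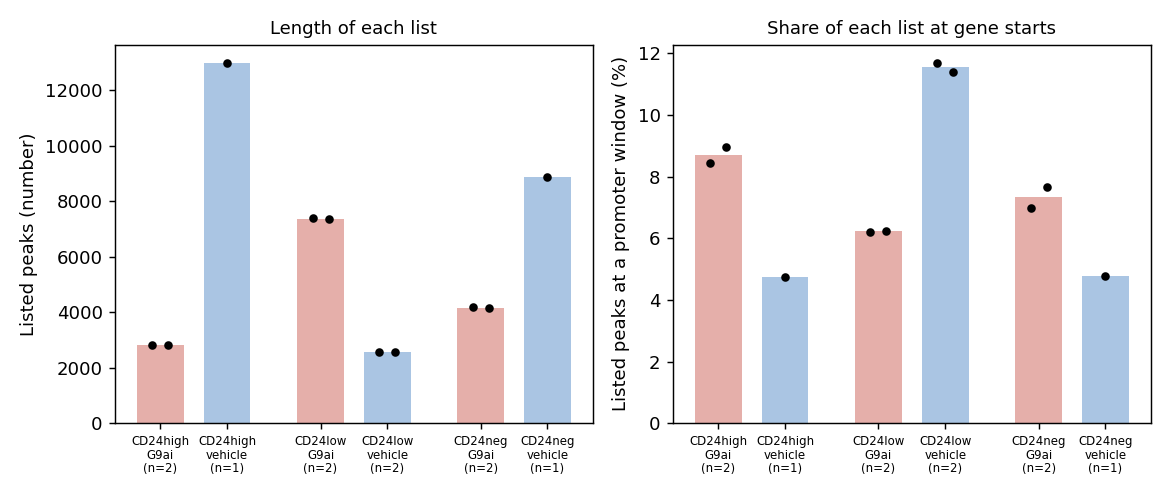
Listed peaks per library (left, number) and the percent of listed peaks that touch a RefSeq promoter window (right), by population and arm, with bars at the mean and points at single libraries. In CD24high cells the G9ai lists were shorter (2798 and 2817 peaks, against 12985 with vehicle) and had more of their peaks at promoters (8.44% and 8.96%, against 4.74%).

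Regions of both arms overlapped by 11 to 503 bp, with a median of 231 bp. Just outside the overlap rule, the closest pair of a G9ai-only and a vehicle-only region directly adjoined each other (a gap of 0 bp), and 59 G9ai-only regions (2.21%) lay within 200 bp of a vehicle-only region. Within 10 kb, 808 G9ai-only regions (30.2%) had a vehicle-only region. Regions of opposite arms therefore stood side by side at some genes. In Lgi3, chr14:70530802-70530997 was G9ai-only and chr14:70530484-70530610 was vehicle-only. Near a start of Ovol2, an epithelial zinc finger factor, chr2:144330711-144330940 was G9ai-only and chr2:144331060-144331188 was vehicle-only. Over all 21887 protein-coding genes, 905 had regions of both kinds.

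G9ai-only regions lay closer to gene starts. A promoter window (250 bp before to 50 bp after a start) was touched by 235 of 2584 G9ai-only regions (9.09%, Wilson 95% interval 8.05 to 10.3) and by 587 of 12455 vehicle-only regions (4.71%, 4.35 to 5.1), on the 20 chromosomes with windows. Per library, the share of listed peaks was 8.44% and 8.96% in the G9ai lists, against 4.74% in the vehicle list. Midpoints within 1000 bp of a start made up 18.3% of the G9ai-only set and 10.9% of the vehicle-only set, with median distances of 20.6 and 25.1 kb. The intervals cover counting error only, and the single vehicle library gives no spread. With all lists cut to their 2798 highest-scoring peaks, promoter shares were 9.16% for the G9ai-only set and 4.82% for the vehicle-only set.

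**Figure D2:**
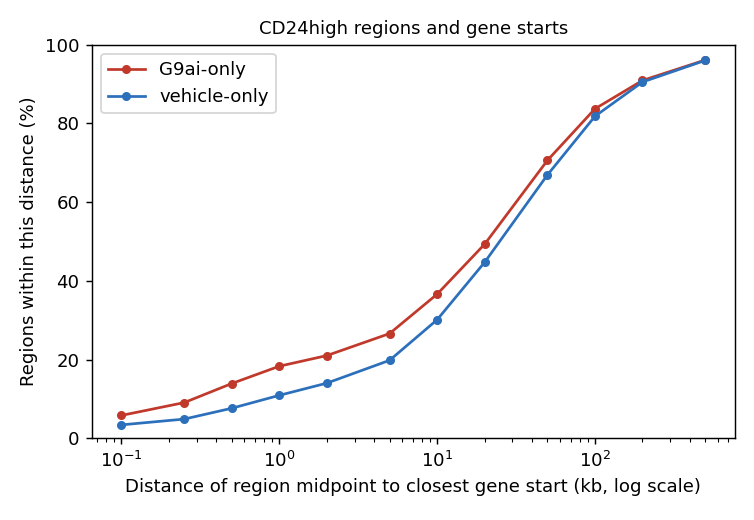
Cumulative percent of G9ai-only and vehicle-only CD24high regions whose midpoint lies within a given distance of the closest RefSeq gene start (kb, log axis). At 1 kb the curves stand at 18.3% for G9ai-only and 10.9% for vehicle-only regions, and at 100 kb at 83.7% and 81.8%.

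Promoter windows under G9ai-only regions were the richer in G and C. Median G+C content was 65.3% in 263 windows with a G9ai-only region, 59.3% in 630 windows with a vehicle-only region and 56.3% in all 21263 windows. Median CpG dinucleotides per 300 bp window were 24, 16 and 13 in the same order. The GC box GGGCGG, the word bound by Sp1-type factors, was found on either strand in 70.3% of G9ai-only, 54.1% of vehicle-only and 46.2% of all windows. The RFX word GTTGCC, part of the site of the Rfx factors of cilium genes, was in 7.98%, 12.7% and 12.6%, and the CCAAT box in 27.4%, 27.1% and 38.2%. The E-box CACGTG was in 12.9%, 11% and 7.84%, and the ETS core CCGGAA in 23.2%, 18.6% and 18.7%. The forkhead core TGTTTAC was in 3.04%, 3.81% and 3.01%, the AP-1 word TGANTCA in 5.7%, 7.14% and 6.99%, and TATAAA in 6.08%, 9.21% and 12.6%. These are counts of letters in windows, with no test.

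**Figure D3:**
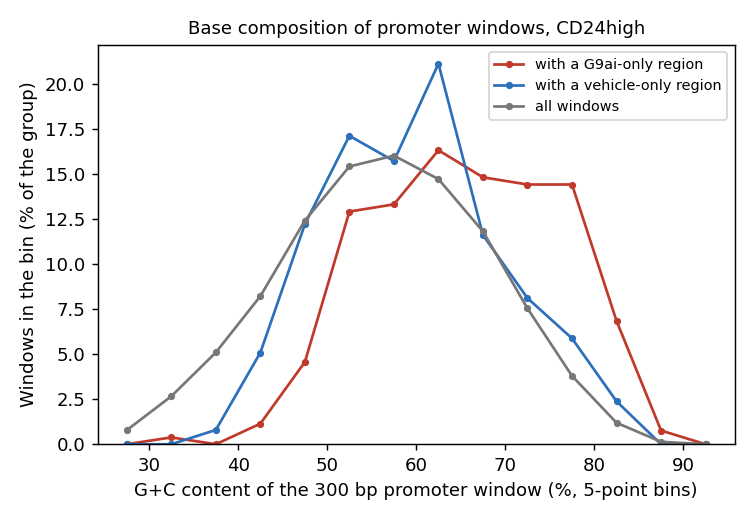
Distribution of G+C content (percent, 5-point bins) over promoter windows of 300 bp with a G9ai-only region, with a vehicle-only region, and over all windows (percent of windows in each group). The G9ai-only curve lies to the right, with a median of 65.3%, against 59.3% for vehicle-only and 56.3% for all windows.

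Genes with a G9ai-only region within the gene or 1000 bp of it numbered 1753 of 21887 (8.01%), and genes with a vehicle-only region 5461 (25%). Promoter windows carried G9ai-only regions in 237 of 17492 genes (1.35%) and vehicle-only regions in 587 (3.36%). Gene length moved with both shares: G9ai-only regions were at 3.1% of genes under 10 kb, 6.23% at 10 to 30 kb, 11.4% at 30 to 100 kb and 21.6% of longer genes. Vehicle-only regions were at 9.27%, 22.2%, 37% and 58.1% in the same classes. List counts below are read against these values, and against lists cut to 2798 peaks each. In the cut lists 8.14% of genes had a G9ai-only and 7.76% a vehicle-only region. Shares by length class were not computed for the cut lists, so these values take no account of gene length.

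Alveolar type 2 genes had one of the highest shares of G9ai-only genes, next to multiciliated regulators (27.8%). A G9ai-only region was at 7 of 25 genes (28%), or at 2 with the higher-scoring 50% of peaks and at 3 by gene ends alone, against 6.23% of all genes of 10 to 30 kb, the class of their median length of 13.3 kb, and a vehicle-only region at 9 (36%, against 22.2%). Per megabase they held 10.3 G9ai-only and 15.5 vehicle-only regions, against 3.12 and 13 over genes of that class. Among the 18 type 2 genes with a promoter window, gene starts held G9ai-only regions at Lpcat1, Slc34a2 and Cxcl15, and no vehicle-only region. Lpcat1 makes the saturated phosphatidylcholine of surfactant, and its region chr13:73467064-73467741 ranked 1782 of 2798 in G9ai replicate 2 and 24 of 2817 in replicate 3, so its rank differed widely between replicates. The region was also in both CD24neg G9ai lists. Slc34a2, the apical phosphate transporter of type 2 cells, had chr5:53049177-53049395 at ranks 1347 and 2170, and Cxcl15 had chr5:90794096-90794482 at 906 and 917. Abca3, the lipid pump of lamellar bodies, had 2 G9ai-only regions and 1 vehicle-only region inside the gene. Ppp1r14c, a phosphatase inhibitor gene, had a G9ai-only region high in both lists, chr10:3392313-3392612, at ranks 88 and 78, with a vehicle-only region at 10233 of 12985. Vehicle-only regions alone were at Sftpd, Napsa, Hc, Muc1 and Dram1 (4 regions), at ranks 3483 to 10782 in the vehicle list. At equal list length the counts were 7 G9ai-only and 0 vehicle-only genes. Sftpc, the most specific type 2 surfactant gene, had no listed region, and neither did Sftpb, Sftpa1 or Lamp3.

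Multiciliated cell regulators had listed regions of both kinds. A G9ai-only region was at 5 of 18 genes (27.8%) and a vehicle-only region at 10 (55.6%), against 6.23% and 22.2% of genes of 10 to 30 kb (the list's median was 26.4 kb). Foxj1, the master factor of motile ciliogenesis, had a vehicle-only region inside the gene, chr11:116332705-116332821, at rank 1269. Rfx2, a factor of cilium gene transcription, had a vehicle-only region at rank 203. Its relative Rfx3 had 1 G9ai-only region at ranks 2647 and 806, near a start, and 3 vehicle-only regions at ranks 778 to 4228. Myb, which acts early in multiciliated cell formation, had a G9ai-only region alone, chr10:21157070-21157207, at ranks 46 and 969. Trp73, which encodes p73 and lies upstream of Foxj1, had 2 of each kind. Foxj2 had 2 G9ai-only regions around a start (ranks 1052 and 1009 for the upstream region, 1100 and 2285 for the inner one) and 2 vehicle-only regions further in. Ccdc78, a protein of the deuterosomes that make centrioles, had a vehicle-only region at its start at rank 2135, and Tead2 at rank 12087. Foxn4, E2f5 and Cep152 had a vehicle-only region each and Cdc20b a G9ai-only region. No region was listed at Mcidas, Gmnc, Ccno, E2f4, Deup1 or Plk4. Cutting the lists to equal length left 5 genes with G9ai-only and 5 with vehicle-only regions.

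Motile cilium genes had more vehicle-only than G9ai-only regions, as did protein-coding genes in general. Of the regions of the 2 sets at these genes, 17.1% were G9ai-only, near the 18.3% over all protein-coding genes. A vehicle-only region was at 23 of 43 genes (53.5%) and a G9ai-only region at 5 (11.6%). The shares were 37% and 11.4% over genes of 30 to 100 kb, the class of the list's median of 65.8 kb. Many members, such as Dnah5 and Hydin, are longer, and over genes of 100 kb and over the shares were 58.1% and 21.6%. The list held 7.28 vehicle-only and 1.5 G9ai-only regions per megabase. These values lie between the 9.77 and 2.22 of the 30 to 100 kb class and the 5.34 and 1.07 of longer genes. Dnah5, the outer arm dynein heavy chain, had a vehicle-only region at a RefSeq start inside the gene, chr15:28203441-28203748, at rank 2496, with 3 more vehicle-only regions and 2 G9ai-only regions inside the gene. Cdhr4 had a vehicle-only region at its start at rank 1856. Dnah3, an axonemal dynein heavy chain, had the strongest region of the list at rank 64, 362 bp outside the gene. Tekt4, a tektin of microtubule doublets, followed at rank 316 and Dnah12 at rank 382. Vehicle-only regions were also at Dnah6, Hydin and Spag17 of the central pair, Rsph1 of the radial spokes, the axonemal ruler genes Ccdc39 and Ccdc40, Drc1 of the nexin-dynein complex, and Lrrc6, which acts in dynein assembly and had 4. Dnah9 had 2 G9ai-only regions and 1 vehicle-only region, and Rsph9 1 of each. Sntn, of the cilium tip, and Pifo had a G9ai-only region alone. With lists of equal length, 11 genes (25.6%) had vehicle-only and 5 (11.6%) G9ai-only regions, without shares by gene length to set beside them.

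**Figure D4:**
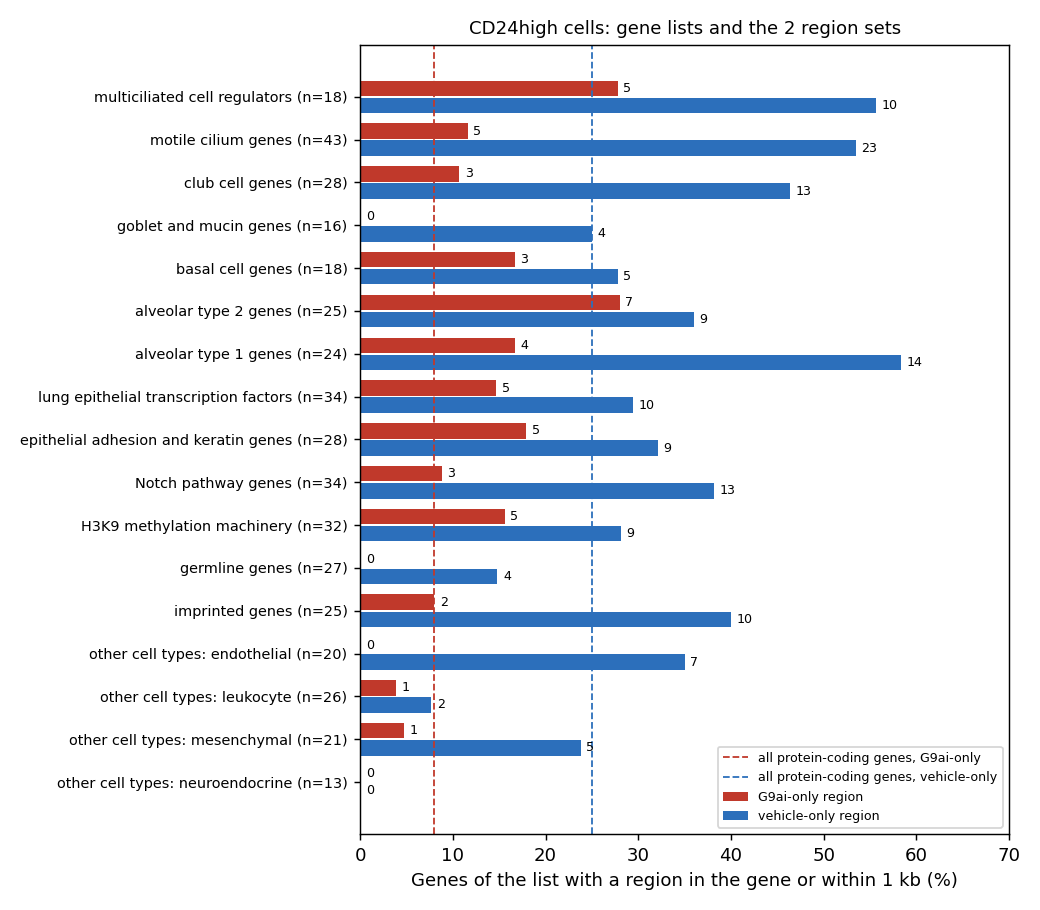
Percent of genes of each list with a G9ai-only (upper bar) or vehicle-only (lower bar) region in the gene or within 1 kb, with the number of genes beside each bar and dashed lines at the values over all protein-coding genes (8.01% G9ai-only, 25% vehicle-only). Alveolar type 2 genes (28%) and multiciliated regulators (27.8%) have the longest G9ai-only bars, and alveolar type 1 genes (58.3%) the longest vehicle-only bar. Lists differ in gene length, which moves with both shares.

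Several of the strongest vehicle-only regions lay at gene starts. Capsl, which encodes a calcyphosine-like protein, had chr15:9435677-9436145 at rank 2, and Kif3a, a motor subunit of the kinesin that carries cargo into cilia, had at an inner start chr11:53567173-53567769 at rank 5. The first region of the list was at the start of Nutf2, which imports the GTPase Ran into the nucleus. A region linked to Ip6k1 and Gmppb, just outside Ip6k1 and far from its start, was at rank 3. The shared region of Abce1 and Anapc10 was at rank 4 and that of Armh1 and Tmem53 at rank 8. The region at the start of Psmc3ip was at rank 6, and it lay 537 bp outside Retreg3, far from the Retreg3 start. Asxl1 and Prpsap2 had regions at their starts at ranks 22 and 27. Each of these named regions was in no list of the other populations.

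Club cell genes had vehicle-only regions at 13 of 28 genes (46.4%, against 22.2% of genes of 10 to 30 kb) and G9ai-only regions at 3 (10.7%, against 6.23%). Scgb1a1, the main secretory protein of club cells, had a vehicle-only region across a gene end, chr19:9087916-9088246, at rank 2697. The start of Cyp2f2, a club cell cytochrome P450, had chr7:27119847-27120004 at rank 3049. In CD24low cells the same 2 regions were in both G9ai lists and not in the vehicle lists, the opposite arm. Pigr, which carries IgA across the epithelium, and Gsta3, a glutathione transferase, had vehicle-only regions at their starts at ranks 4228 and 10449. Cyp2a5 had the strongest region of the list at rank 591, outside the gene. Por, the reductase that supplies electrons to cytochrome P450 enzymes, had 2 of each kind. Aldh1a1 and Cckar had a G9ai-only region alone, and Kcnk2 a region of both arms. In lists of equal length, 8 genes had vehicle-only and 4 G9ai-only regions. Of 16 goblet and mucin genes, 4 (25%) had a vehicle-only region (Muc5b, Agr2, Muc1 and Creb3l1), at ranks 5650 to 12592, and 0 a G9ai-only region, near the 22.2% and 6.23% of genes of 10 to 30 kb for a list of this size.

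Alveolar type 1 genes had vehicle-only regions at 14 of 24 (58.3%, against 37% of genes of 30 to 100 kb), with G9ai-only regions at 4 (16.7%, against 11.4%). Lmo7, a LIM domain gene, held 10 of the 31 vehicle-only regions, the strongest at rank 170. Sema3e, a secreted semaphorin, had 3 with the strongest at rank 251, and Hopx, a homeodomain factor of type 1 cells, had 3 at ranks 4920 to 11130. Col4a3 and Col4a4, basement membrane collagen genes that start back to back, shared chr1:82586794-82586954 at rank 3904, and Col4a4 had another region at rank 233. Gprc5a had a G9ai-only region alone at ranks 480 and 131, and Clic5, Emp2 and Timp3 had regions of both kinds. Ager, Aqp5 and Pdpn had no listed region. At equal list length, 9 genes (37.5%) had vehicle-only and 4 (16.7%) G9ai-only regions, again without shares by gene length to set beside them.

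Lung epithelial transcription factors had G9ai-only regions at 5 of 34 genes (14.7%) and vehicle-only regions at 10 (29.4%), against 3.1% and 9.27% of genes under 10 kb (the list's median was 6.95 kb). At equal list length the order of the arms turned, with 5 G9ai-only and 2 vehicle-only genes, as it did over all genes (8.14% and 7.76%). Klf5 had 3 G9ai-only regions inside the gene and no vehicle-only region, at ranks 811 and 195 for the strongest, chr14:99305370-99305674. Klf4 and Ehf had a G9ai-only region each and no vehicle-only one. Nkx2-1, the lung lineage factor, and Foxa1 had vehicle-only regions outside the gene at ranks 7598 and 7225, and Grhl1, a grainyhead factor of epithelium, had the strongest of the list at rank 397. Of 28 adhesion and keratin genes, 5 had a G9ai-only region (17.9%) and 9 a vehicle-only region (32.1%), against 6.23% and 22.2% of genes of 10 to 30 kb. Cdh1, which encodes E-cadherin, had 2 of each. Krt18 and Krt19 encode keratins of simple epithelium, and Krt18 had a G9ai-only region at ranks 122 and 234 while Krt19 had a vehicle-only region at rank 675. Desmoplakin (Dsp) and occludin (Ocln) had vehicle-only regions at ranks 111 and 305. Spint1, a protease inhibitor gene, had a G9ai-only region at its start at ranks 2194 and 324. Among the 18 genes of basal cells, G9ai-only regions were at Aqp3 and Dlk2, at their starts, and at Itga6 (16.7%, against 6.23% of genes of 10 to 30 kb), and vehicle-only regions at 5 (27.8%, near the 22.2% of that class).

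Notch pathway genes had vehicle-only regions at 13 of 34 genes (38.2%) and G9ai-only regions at 3 (8.82%). Over genes of 30 to 100 kb the shares were 37% and 11.4% (the list's median was 30.6 kb). At equal list length, 6 genes (17.6%) had vehicle-only and 3 (8.82%) G9ai-only regions. The receptors Notch1, Notch2 and Notch3 had 2, 8 and 1 vehicle-only regions, Notch2 also had 1 G9ai-only region, and Notch1 had a region of both arms at ranks 960 and 806 with G9ai and 1230 with vehicle. The ligand Jag1 had 3 vehicle-only regions and the DNA-binding effector Rbpj 2. Among Mastermind coactivators, Maml3 had 3 G9ai-only and 16 vehicle-only regions, the most vehicle-only regions of any gene, and Maml2 had 2 and 3, with chr9:13442073-13442610 at ranks 11 and 116 with G9ai. Of the target genes, Nrarp had a vehicle-only region at rank 7225, and Hes1, Hes5, Hey1, Hey2 and Heyl had no listed region.

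The inhibitor's own targets Ehmt1 and Ehmt2 had no listed region in CD24high cells. Of 32 genes of H3K9 methylation, 5 had a G9ai-only region (15.6%) and 9 a vehicle-only region (28.1%), near and below the 11.4% and 37% of genes of 30 to 100 kb (the list's median was 50.3 kb). At equal list length the order of the arms turned, with 5 G9ai-only and 3 vehicle-only genes, as it did over all genes (8.14% and 7.76%). Cbx5, which encodes the H3K9 methyl reader HP1 alpha, had a G9ai-only region at its start, chr15:103239827-103240054, at ranks 1052 and 468. Atf7ip, a partner of the methyltransferase Setdb1, had 1 G9ai-only region at ranks 262 and 669 and 3 vehicle-only regions. The demethylase family gene Jmjd1c had 2 and 5, and the demethylases Kdm4a, Kdm4b, Kdm4c and Kdm1a vehicle-only regions alone. Cdyl2 and Dnmt1, the maintenance DNA methyltransferase, had a G9ai-only region alone. Germline genes had G9ai-only regions at 0 of 27 and vehicle-only regions at 4 (14.8%), Tdrd9, Stra8, Dppa3 and Hormad1. Over genes of 10 to 30 kb, the class of their median, the shares were 6.23% and 22.2%, and at 6.23% a list of this size allows little reading of a count of 0. Of 25 imprinted genes, 2 had a G9ai-only region (8%, near the 6.23% of genes of 10 to 30 kb), namely Gnas, with 3, and Igf2r, and 10 a vehicle-only region (40%, against 22.2%).

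Outside the lists, the strongest G9ai-only region linked to a gene was at the start of Fyn, a Src family kinase, chr10:39369484-39369993, at ranks 3 and 1. Pqbp1 and Timm17b shared a region at their starts, chrX:7899165-7899662, at ranks 5 and 9, which both CD24low G9ai lists also held. Hk1, which encodes a hexokinase, had a region at an inner start at rank 2 in replicate 2 and 1635 in replicate 3, and Tiprl likewise at 1468 and 4. Scores of the 2675 G9ai-only regions in the 2 G9ai lists had a Spearman rho of 0.32, given as a description, since the replicates hold almost the same regions but order them differently. Tgfbr1, a TGF-beta receptor gene, had a start region at ranks 641 and 7, and Tsg101, of the ESCRT sorting machinery, a region at an inner start at 43 and 13. Supt4a, a transcription elongation factor gene, was at 19 and 14, and Cyb5r4 at 21 and 17. The strongest G9ai-only region of all, chr4:33290095-33290472 at ranks 1 and 2, was among the 796 G9ai-only regions (29.8%) linked to no protein-coding gene, against 4472 vehicle-only regions (34.7%). Pip5k1b held the most G9ai-only regions with 6, and Arid1b, Atxn1, Fbxl17 and Foxp1 were among the genes with 4. After Maml3, Msi2 held 12 vehicle-only regions and Nav2 11, and Itga9 and Lmo7 were among the genes with 10.

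Genes of the sort were checked for listed regions. Cd24a, Epcam and Ly6a, which encode the markers the cells were sorted for, had none, nor did Ptprc (CD45), and Pecam1 (CD31) had a vehicle-only region at rank 6245. Endothelial genes had G9ai-only regions at 0 of 20 and vehicle-only regions at 7 (35%, near the 37% of genes of 30 to 100 kb, where 11.4% had a G9ai-only region), and Prox1 a region of both arms. Of 26 leukocyte genes 1 had a G9ai-only (3.85%) and 2 a vehicle-only region (7.69%), below the 6.23% and 22.2% of genes of 10 to 30 kb. Of 21 mesenchymal genes 1 (4.76%) and 5 (23.8%) had them. Their median length of 31.8 kb lies near the border of 2 classes. The shares were 6.23% and 22.2% over genes of 10 to 30 kb and 11.4% and 37% over genes of 30 to 100 kb. Of 13 neuroendocrine genes 0 and 0 had them, against 6.23% and 22.2% of genes of 10 to 30 kb (the list's median was 10.9 kb). A list of this size allows little reading of these counts. The endothelial genes with vehicle-only regions were Pecam1, Flt4, Tek, Vwf, Robo4, Cldn5 and Egfl7, the leukocyte genes Lcp1 and Mrc1, and the mesenchymal genes Pdgfra, Pdgfrb, Tagln, Vim and Gli1. The G9ai-only regions were at Cd79a and Fn1. Cdh5, Kdr, Cd3e and Col1a1 were among the genes with no listed region. At equal list length the counts of G9ai-only and vehicle-only genes were 1 and 0 for endothelial, 1 and 0 for leukocyte, and 1 and 1 for mesenchymal genes. The part of other cell types in the 2 sets was not tested, and in bulk libraries a change in the mix of cells and a change within cells cannot be told apart.

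Regions of the CD24high sets were looked up in the other sorted populations. Of the G9ai-only regions, 302 (11.3%) overlapped a G9ai-only region of CD24low cells, which was 4.22% of that set, and 100 (3.74%) overlapped a CD24low vehicle-only region (4% of that set). Of the vehicle-only regions, 982 (7.62%) overlapped a CD24low G9ai-only region (13.7% of that set) and 412 (3.2%) a CD24low vehicle-only region (16.5%). In CD24neg cells, 148 G9ai-only regions (5.53%) overlapped the G9ai-only set there (3.69% of it) and 274 (10.2%) the vehicle-only set (3.12%). Vehicle-only regions overlapped those sets in 528 (4.1%; 13.1% of the set) and 1314 cases (10.2%; 15%). For each CD24high set, the more frequent overlap was thus with the longer list of the other population.

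**Figure D5:**
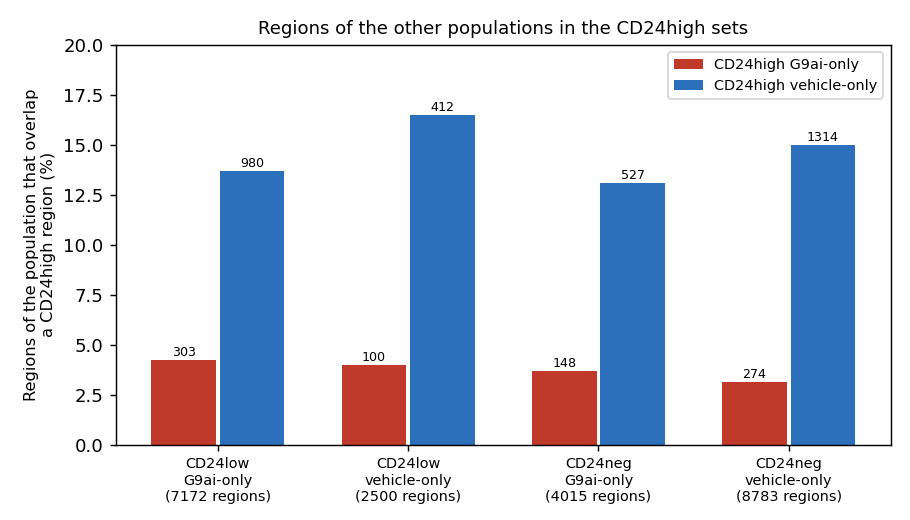
Percent of the G9ai-only and vehicle-only regions of CD24low and CD24neg cells that overlap a CD24high G9ai-only or vehicle-only region, with the number of overlapping regions above each bar. CD24high vehicle-only regions, the larger set, overlap 13.1% to 16.5% of each set, and CD24high G9ai-only regions 3.12% to 4.22%.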

How the data were processed

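ATAC-seq of sorted mouse lung epithelium was deposited as a peak list per library, on mm10, with peak score as the only value. The submitters' processing notes name FastQC, Bowtie2 and MACS2, with no versions. The score is the authors' deposited whole-number value of unknown scale, from which peaks were ranked inside each list, with tied scores sharing a rank. Read depth is unknown, and lists were used as deposited after repeated lines were dropped (64 and 83 in the G9ai lists, 162 in the vehicle list). Regions were linked to 21887 RefSeq protein-coding genes (GRCm38.p6) over the gene span plus 1000 bp, and to 21263 promoter windows on 20 chromosomes. Overlapping genes share regions. Shares carry Wilson 95% intervals, and library values an exact permutation test. Python 3.11.15, numpy 2.4.6 and scipy 1.17.1 were used, and merging was tested on simulated lists. The simulated regions lay far apart, so adjoining regions of opposite arms were not part of that test. Members, the 18 gene lists (437 names, all matched) and promoter words were chosen with earlier results of these data known. Named genes were 10 always named, up to 15 list genes and 10 other genes per arm by mean best-peak score, 10 promoter genes and 5 with most regions, besides list members in list order, without predicted, olfactory and Rik symbols.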

Additional observations from a re-analysis of the deposited data

Results flagged for a closer look

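The arms differed in opposite directions between CD24high and CD24low cells, and these differences were not tested. The log2 ratio of listed peaks, G9ai over vehicle, was -2.21 in CD24high cells and 1.53 in CD24low cells. The share of listed peaks at a promoter window, G9ai minus vehicle, was 3.96 percentage points in CD24high cells and -5.3 in CD24low cells. In every library of both populations the shorter list of the pair had the larger promoter share. CD24neg cells, also with 1 vehicle library, went the way of CD24high cells on both measures, with a log2 ratio of -1.09 and 2.58 points.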

How the results depend on the processing

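Of 297 alternative values of 53 results, 40 values of main results and 43 of others moved. At equal list length the order of the arms turned for type 2, transcription factor, H3K9, endothelial and leukocyte genes, the last 2 with 1 gene against 0. It also turned over all protein-coding genes, from 8.01% G9ai-only and 25% vehicle-only to 8.14% and 7.76%. Leaving out either G9ai replicate gave 2703 to 2715 G9ai-only and 12883 to 12890 vehicle-only regions, and 3.75 to 4.21 points for the difference in promoter share, which says nothing of replication, since 99.6% and 99.4% of the peaks of these lists overlap. Keeping the higher-scoring 50% of each list gave 826 and 6435 regions, a log2 ratio of -2.96, and a promoter share of 10.5% for G9ai-only regions. G9ai-only genes were then 21 over all lists, 3 multiciliated regulators, 3 cilium, 1 club, 2 type 2 and 1 type 1, and vehicle-only type 2 genes 4. Overlap of G9ai-only and vehicle-only regions was then 13.1% and 9.04% with CD24low G9ai-only regions, 4.84% and 3.92% with CD24low vehicle-only regions, and 8.35% and 9.49% with CD24neg vehicle-only regions. With lists of equal length, 2773 vehicle-only regions remained, the log2 ratio was -0.02, and vehicle-only genes were 57 over all lists, 5 regulators, 11 cilium, 8 club, 0 type 2 and 9 type 1. Counting regions within 1000 bp of either gene end in place of promoter windows gave 22.9% and 14.5%, a difference of 8.37 points. Linking by gene ends only gave 18 G9ai-only and 53 vehicle-only list genes, with 1 and 3 regulators, 1 and 5 cilium, 0 and 8 club, 3 and 3 type 2 and 0 and 6 type 1 genes. Fewer peaks or narrower windows entered these counts by construction. No paired analysis was possible because the arms share replicate number 3 alone. The unknown depth and selection limit every count.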
